A study of Mus musculus with 12 samples.

Results

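The E2F transcription factors and their DP partners were followed in mouse liver. The members were the genes E2f1 to E2f8, Tfdp1 and Tfdp2, taken as every non-control probe on the array whose gene name, or a current synonym of it, was one of these. There were 10 genes with 14 probes among 55681 probes, and 13 of these probes, for 9 genes, were among the 28442 bright enough to be tested. E2f5 was the gene left out of the tests.

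RNA from whole liver was measured on 12 one-colour Agilent arrays, with 1 mouse per array and 4 mice in each of 3 groups. Wild type mice (129/Sv x C57BL/6) formed one group, and mice lacking E2f1 (E2f1-/-) or E2f2 (E2f2-/-) the others. Per the treatment protocol all 3 groups, the wild type included, were given the liver carcinogen diethylnitrosamine (DEN), a compound that hepatocytes convert to a DNA-alkylating agent, at 25 mg/kg into the peritoneum on postnatal day 14. A diet with 60% of its calories from fat followed for 32 weeks, and livers were taken at 9 months after a 4 hour fast. By the protocol each difference below is between treated animals. The labels conflict on this for the E2f1 knockout livers, whose source field gives vehicle and chow, whereas their descriptions, their characteristics and the protocol give DEN and high-fat diet. The conflict is unresolved and touches each comparison with the E2f1 knockout livers. The sources used here do not state the sex of the mice or which part of each gene was deleted, and they name the strain for the wild type group alone.

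E2F proteins bind gene promoters as partners of a DP protein, and pocket proteins of the retinoblastoma family hold them in check until cyclin-dependent kinases phosphorylate the pocket proteins. E2F1, E2F2 and E2F3 are known as activators of genes for DNA replication and the cell cycle, E2F4 and E2F5 as repressors that work with pocket proteins. E2F6 represses without a pocket protein, and E2F7 and E2F8 are atypical repressors that bind DNA without DP. In normal adult liver most hepatocytes are quiescent, and E2F7 and E2F8 are known for their part in hepatocyte polyploidy.

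The sequences that the results turn on are given first. For the deleted genes and E2f6 they are the first 30 of the 60 bases of each probe, shown because these bases define what was hybridised. For E2f3 they are the whole probe 2, whose ends lie 3387 bases apart on the chromosome, so that it reads across a splice junction. The files give positions in mm9, and no mm9 gene model was used here to place a probe in an exon or UTR.
E2f1 probe, chr2:154385828-154385857, minus strand: gcctggctgggtttgcagggcagcaagagc
E2f2 probe, chr4:135750562-135750591, plus strand: aaccttttgacatatgtgacctcgtcgtct
E2f6 probe, chr12:16833463-16833492, plus strand: ggtaaacctctcctgctttacaaaagattt
E2f3 probe 2, chr13:30005369-30008755, minus strand: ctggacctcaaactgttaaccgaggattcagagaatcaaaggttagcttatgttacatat

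Values are log2 processed signal minus the 75th percentile of the array, so 0 stands for the 75th percentile spot, and levels are compared between groups for one probe and never between probes. Errors of group means are SD with n = 4, and errors of differences are standard errors from limma. A difference was called when its Benjamini-Hochberg adjusted p, over all 28442 tested probes, was under 0.05. The 75th percentile lay between 119 and 236 intensity units on the 12 arrays, and 44.8% to 54.5% of probes were well above background. Arrays of the same group correlated at 0.953 to 0.987 and arrays of different groups at 0.927 to 0.978, over probes. Each slide held 1 array of each group, always in the same column for a group, so column and group cannot be told apart, while the slide itself is balanced over the groups. Hepatocyte markers were all tested (10 of 10), and their summed level was 8102 to 11310 times the 75th percentile signal in wild type, 8918 to 12230 among E2f1 knockout and 8308 to 11880 among E2f2-labelled livers.

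The E2f1 knockout livers had less RNA for all 3 activator E2Fs and more for E2f6. A single member, the DP gene Tfdp2, passed in the comparison of the livers labelled E2f2 knockout with wild type. Tfdp2 was not called between the knockout groups. In E2f1 knockout 4 of the 9 tested genes were called, 3 lower (E2f1, E2f2, E2f3) and 1 higher (E2f6). Over all tested probes 19.3% were called in this comparison, 6.78% lower and 12.5% higher. In the livers labelled E2f2 knockout 1 of 9 genes was called, against 20.8% of all probes and 13.7% in the higher direction (7.18% lower). The split between directions moved with the scaling: in E2f1 knockout 3553 probes were higher and 1929 lower, against 2573 and 2345 with quantile normalization and 2010 and 1933 with median centring, and in E2f2-labelled livers 3885 and 2041, against 2513 and 2433, and 1918 and 1999. None of the 13 tested probes separated these livers from wild type without overlap, against 16.4% of all probes above and 6.82% below wild type. Directly between the knockout groups 1 of 9 genes, E2f2, was called, against 1.73% of all probes and 0.96% in the higher direction.

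**Figure D1:**
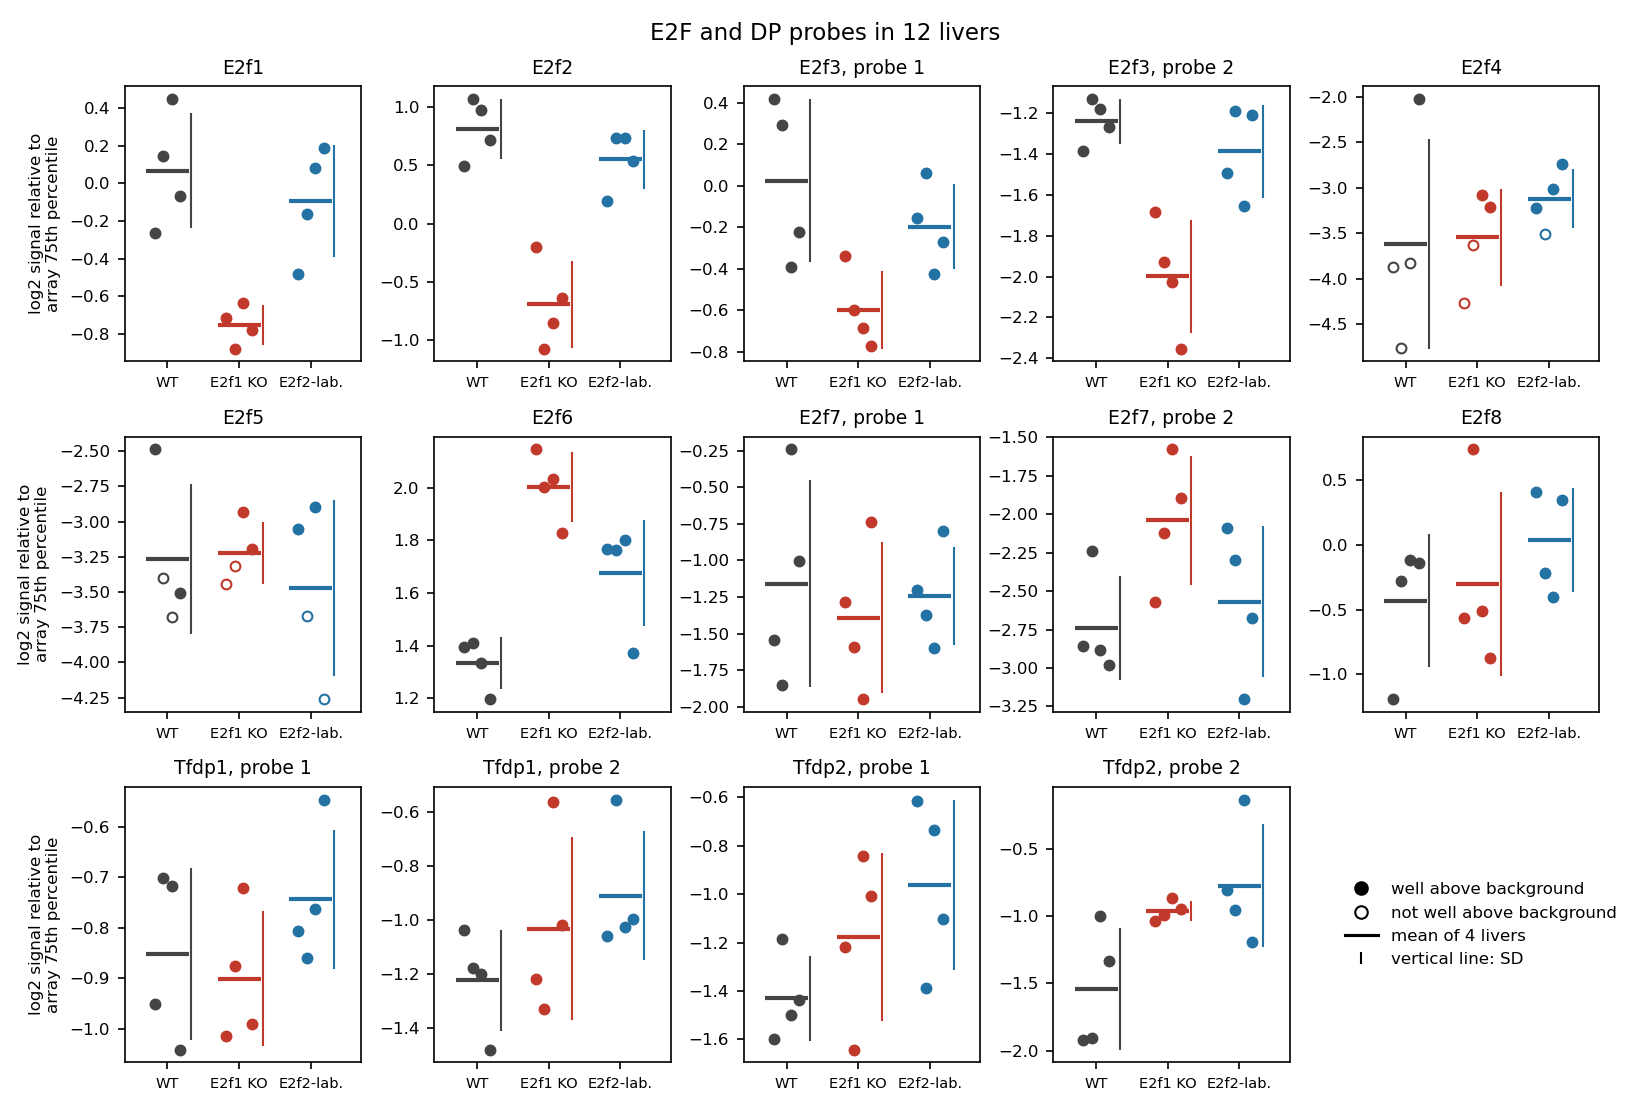
Log2 signal relative to the array's 75th percentile (vertical axis, a different range in each panel) for the 14 E2F and DP probes in wild type (WT), E2f1 knockout (KO) and E2f2-labelled livers. Points are livers (open where not well above background), horizontal bars are means of 4 and vertical lines the SD; the E2f1 and E2f2 panels show all 4 E2f1 knockout livers below every other liver, while the 4 E2f2-labelled livers overlap wild type.

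The targeted genes were examined first, because they check the labels. E2f1, read by a single probe on chromosome 2 (mm9 154385798 to 154385857), was -0.26, 0.15, 0.45 and -0.06 in the 4 wild type livers. In the E2f1 knockout livers it was -0.72, -0.88, -0.63 and -0.78, and in the E2f2-labelled livers -0.48, -0.16, 0.08 and 0.19. The knockout livers were the lowest 4 of the 12 and did not overlap either group, and E2f1 was still well above background in each of them. The means were 0.07 ± 0.31, -0.75 ± 0.10 and -0.09 ± 0.30, a fall of 0.82 ± 0.19 on the log2 scale in E2f1 knockout (1.77-fold, adjusted p = 0.0114). Of all tested probes 6.51% lay below wild type without overlap in this comparison. Whether the probe lies inside the deleted part of E2f1 is not known here, so it checks the direction of the label and not the loss of the transcript.

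E2f2 was not called lower in the livers labelled for its knockout. Its probe on chromosome 4 (mm9 135750562 to 135750621) was 0.49, 1.07, 0.97 and 0.72 in wild type and 0.20, 0.73, 0.73 and 0.54 in the livers labelled E2f2 knockout, ranges that overlap. The means of 0.81 ± 0.26 and 0.55 ± 0.25 differed by -0.26 ± 0.21 (adjusted p = 0.403), with a 95% confidence interval from -0.72 to 0.20, and the labelled liver was below the wild type liver on each of the 4 slides (-0.33 to -0.18). Since the deleted part of E2f2 is not given either, a probe outside it would not show the deletion. These livers are called E2f2-labelled here, and every direction drawn from them rests on that label.

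The lowest E2f2 levels were in the other group. In E2f1 knockout livers E2f2 was -0.20, -1.07, -0.85 and -0.64, below each wild type and each E2f2-labelled liver. Its mean of -0.69 ± 0.37 was 1.50 ± 0.21 below wild type (2.83-fold, adjusted p = 0.00133), and on the 4 slides the difference ran from -2.14 to -0.69. The E2f2-labelled livers were 1.24 ± 0.21 above the E2f1 knockout livers (2.36-fold, adjusted p = 0.00842), higher on every slide by 0.39 to 1.81. The order of E2f2 levels was thus E2f1 knockout, then E2f2-labelled and wild type, and the ranges of the last pair overlapped. A fit of that pair of groups with the slide as a block, chosen after seeing the data, gave no call for E2f2 either (adjusted p = 0.179), and the exact sign-flip test over the 4 slides gave a two-sided p = 0.125, the smallest it can give. E2f1 had the same order of means, with no call between the knockout groups (0.66 ± 0.19, adjusted p = 0.131, interval 0.25 to 1.07) although they did not overlap, a separation in this direction that 5.04% of all tested probes showed.

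The third activator, E2f3, has a pair of probes on chromosome 13, and both fell in E2f1 knockout. Probe 1 (mm9 29998480 to 29998539, the brighter) was 0.42, 0.29, -0.39 and -0.22 in wild type. In E2f1 knockout it was -0.34, -0.60, -0.69 and -0.77, which overlapped wild type in 1 liver of each group. The means of 0.02 ± 0.39 and -0.60 ± 0.19 differed by -0.62 ± 0.20 (1.54-fold, adjusted p = 0.0472), a call lost in 13 of 23 alternative settings (adjusted p from 0.0141 to 0.136). Among these, leaving out any of the following ended it: wild type replicate 1 (-0.49, adjusted p = 0.122) or 2 (-0.53, 0.136), E2f1 knockout replicate 2, 3 or 4 (0.0857, 0.107 and 0.116) or any 1 of the 4 E2f2-labelled replicates (0.0541 to 0.0622). Within slides the difference ran from -0.89 to -0.29.

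Probe 2, which reads across the splice junction, was -1.39, -1.13, -1.18 and -1.27 in wild type and -1.69, -1.93, -2.03 and -2.36 in E2f1 knockout, with no overlap and with within-slide differences of -1.09 to -0.30. The fall was 0.76 ± 0.17 (1.69-fold, adjusted p = 0.0104), and it was lost under 1 of 22 alternatives, normexp background correction (adjusted p = 0.108). In E2f2-labelled livers probe 2 was -1.49, -1.19, -1.66 and -1.21, and neither E2f3 probe passed against wild type (-0.22 ± 0.20, adjusted p = 0.458, and -0.15 ± 0.17, adjusted p = 0.575). Between the knockout groups the probes gave 0.40 ± 0.20 (adjusted p = 0.478) and 0.61 ± 0.17 (adjusted p = 0.118).

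**Figure D2:**
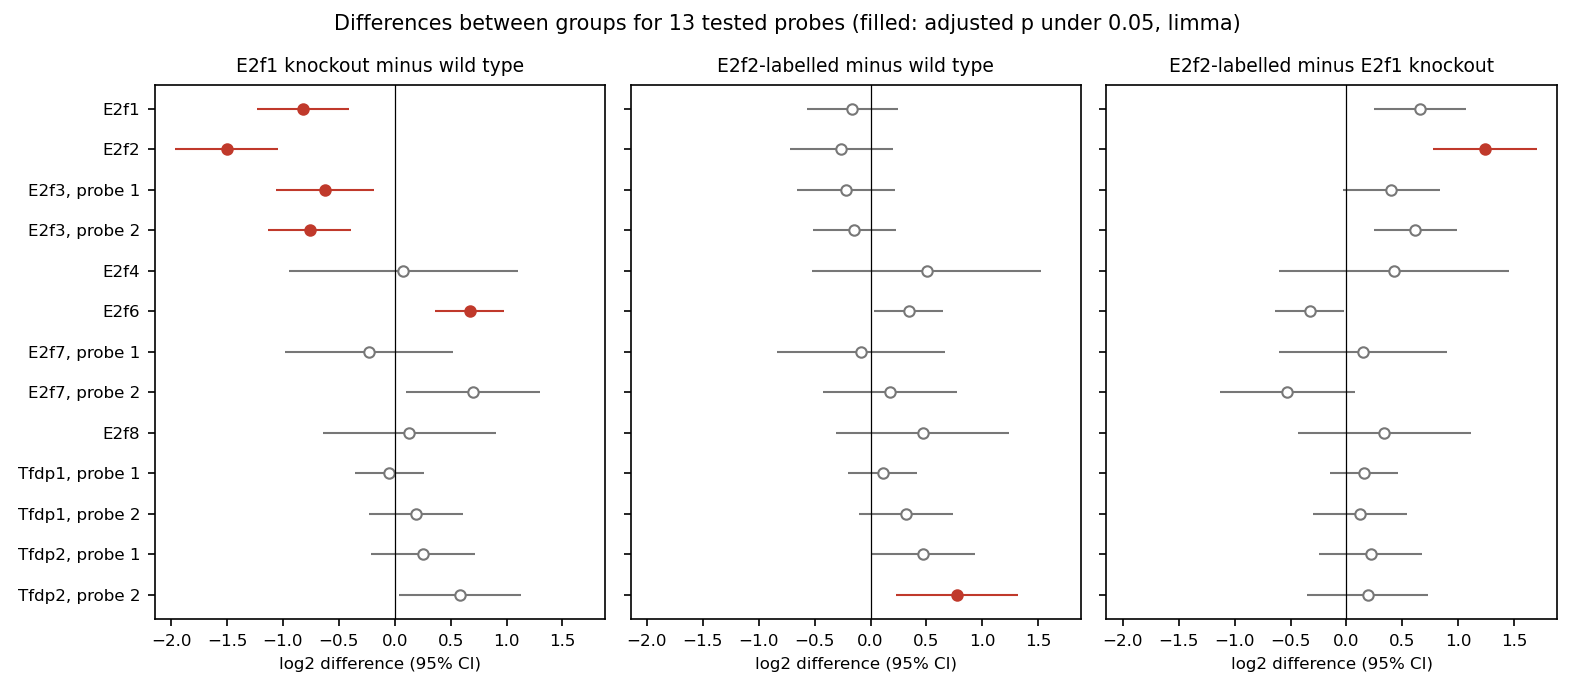
Log2 differences (horizontal axis) with 95% confidence intervals from limma for the 13 tested E2F and DP probes (vertical axis) in the 3 comparisons; filled points passed an adjusted p of 0.05. On the left the 4 probes of E2f1, E2f2 and E2f3 lie below 0 and E2f6 above it; in the middle only Tfdp2 probe 2 is filled, and on the right only E2f2.

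Promoter sequence was available for part of the family. RefSeq windows of 300 bases around the start (GRCm38.p6, from 250 before it to 50 after) were held for 8 of the 10 genes, in 12 windows, and none for E2f4 or E2f5. They were searched on both strands for the E2F sites TTTGGCGC, TTTCCCGC, TTTGCCGC and TTTCGCGC, for the cell cycle element TTTGAA and for CCAAT. At least 1 of the 4 E2F sites was in 5 windows of 4 members (E2f2, E2f3, E2f7 and Tfdp1), against 2.26% of all 32851 windows. These were 4 distinct sites, since the Tfdp1 windows overlap and share theirs. TTTGAA was in 17.9% and CCAAT in 37.4% of all windows, so single matches of these are common. The E2f1 window held none of the 6 motifs, and the other windows of E2f2 and E2f3 held no E2F site. E2f1, the gene deleted in E2f1 knockout, fell there too. Whether the sites bear on any of the falls was not tested. The windows of E2f2 and E2f3 with a site are printed in part because both genes fell in E2f1 knockout, with matches in capitals (ATTGG and GCGGGAAA are CCAAT and TTTCCCGC read on the other strand).
E2f2, chr4:136172174-136172273, plus strand, bases -100 to -1: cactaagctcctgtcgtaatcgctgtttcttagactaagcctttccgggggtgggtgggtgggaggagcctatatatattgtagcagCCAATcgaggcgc
E2f2, chr4:136172294-136172323, plus strand, bases 21 to 50: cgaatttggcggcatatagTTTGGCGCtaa
E2f3, chr13:29986064-29986213, minus strand, bases -150 to -1: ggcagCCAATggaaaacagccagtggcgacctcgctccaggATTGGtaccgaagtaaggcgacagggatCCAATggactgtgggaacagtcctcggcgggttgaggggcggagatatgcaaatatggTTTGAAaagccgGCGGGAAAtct
In E2f2 the E2F site TTTGGCGC lies at bases 40 to 47 after the start and CCAAT at -13 to -9. In E2f3 the site lies at -11 to -4, beside TTTGAA at -23 to -18 and with CCAAT at -145, -109 and -81. E2f7 has TTTCCCGC at -198 to -191 and Tfdp1 has TTTCGCGC at -43 to -36, each on the reverse strand, and neither gene was called in any comparison. These matches describe the letters in these windows and no binding was measured.

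Among the repressors that work with pocket proteins, both genes were dim. E2f4 (chromosome 8, mm9 107829156 to 107829215) was well above background on 1 wild type, 2 E2f1 knockout and 3 E2f2-labelled arrays, and its values ran from -4.77 to -2.02 in wild type alone. It differed from wild type by 0.07 ± 0.47 in E2f1 knockout (adjusted p = 0.935, interval -0.95 to 1.10) and by 0.50 ± 0.47 in E2f2-labelled livers (adjusted p = 0.476, interval -0.52 to 1.53). Changes within these intervals were not detectable at this brightness. The second of these differences passed in limma without wild type replicate 4 (adjusted p = 0.0489). That array, at -2.02, was the 1 wild type array well above background. The pass therefore set E2f2-labelled livers against undetected wild type values. E2f4 entered the tests through the E2f2-labelled arrays alone. E2f5 (chromosome 3, mm9 14605676 to 14605735) was well above background on 2 of 4 arrays in every group and was not tested. It averaged -3.27 ± 0.53 in wild type, -3.22 ± 0.22 among E2f1 knockout and -3.47 ± 0.62 among E2f2-labelled livers.

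E2f6, the repressor without a pocket protein, was the member called higher in E2f1 knockout. On chromosome 12 (mm9 16833463 to 16833522) its probe was 1.40, 1.41, 1.33 and 1.20 in wild type. It was 2.15, 2.00, 2.03 and 1.83 in E2f1 knockout, above every other liver. The means were 1.33 ± 0.10 and 2.00 ± 0.13, a rise of 0.67 ± 0.14 (1.59-fold, adjusted p = 0.00814) with within-slide differences of 0.59 to 0.75. Of all tested probes 14.2% lay above wild type without overlap in this comparison, and the median of all probes was itself 0.13 above wild type.

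E2f2-labelled livers lay between the other groups for E2f6, at 1.77, 1.76, 1.80 and 1.37, of which the lowest overlapped wild type. Their mean of 1.68 ± 0.20 was 0.34 ± 0.14 above wild type (adjusted p = 0.106) and 0.33 ± 0.14 below E2f1 knockout (adjusted p = 0.387), the latter without overlap, as were 4.01% of all tested probes in that direction. Neither difference passed. With the slide as a block the first of these differences passed (adjusted p = 0.0431), and it was higher on all 4 slides by 0.18 to 0.47. With median centring the rise in E2f1 knockout missed the threshold (0.60, adjusted p = 0.0554).

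The atypical repressors E2f7 and E2f8 had wide spreads and no call. E2f7 has a probe 1 and a probe 2 on chromosome 10 (mm9 110219255 to 110219314 and 110224331 to 110224390). Probe 1 ran from -1.85 to -0.24 in wild type, from -1.95 to -0.74 in E2f1 knockout and from -1.60 to -0.80 in E2f2-labelled livers. Probe 2 was -2.86, -2.24, -2.88 and -2.98 in wild type and -2.57, -2.12, -1.57 and -1.89 in E2f1 knockout, where the mean differences of the probes had opposite signs. Probe 1 differed by -0.23 ± 0.35 (adjusted p = 0.698) and probe 2 by 0.70 ± 0.28 (adjusted p = 0.0973, interval 0.10 to 1.30), higher on each of 4 slides. Probe 1 was also higher on 3 of 4 slides, and its difference was 0.07 without wild type replicate 3, so the negative sign rested on that liver. In E2f2-labelled livers probe 2 ran from -3.20 to -2.09, and the differences from wild type were -0.09 ± 0.35 (adjusted p = 0.885, interval -0.84 to 0.66) and 0.17 ± 0.28 (adjusted p = 0.692, interval -0.43 to 0.77).

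E2f8 (chromosome 7, mm9 56121860 to 56121919, minus strand) averaged -0.43 ± 0.51 in wild type, -0.30 ± 0.71 among E2f1 knockout and 0.03 ± 0.40 among E2f2-labelled livers. A single E2f1 knockout liver, at 0.74, was above every other liver, and a single wild type liver, at -1.19, below every other one. The differences from wild type were 0.13 ± 0.36 (adjusted p = 0.845, interval -0.64 to 0.90) and 0.47 ± 0.36 (adjusted p = 0.373, interval -0.31 to 1.24).

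Of the DP genes, Tfdp1 was not called in any comparison and Tfdp2 was called in 1. Tfdp1 has a pair of probes on chromosome 8 (mm9 13377579 to 13377638 and 13377791 to 13377850). The brighter ran from -1.04 to -0.70 in wild type, from -1.01 to -0.72 among E2f1 knockout and from -0.86 to -0.55 among E2f2-labelled livers, ranges that overlap. In E2f1 knockout they differed from wild type by -0.05 ± 0.14 (adjusted p = 0.856, interval -0.35 to 0.26) and 0.19 ± 0.19 (adjusted p = 0.544), and in E2f2-labelled livers by 0.11 ± 0.14 (adjusted p = 0.615, interval -0.20 to 0.41) and 0.31 ± 0.19 (adjusted p = 0.268). A change of Tfdp1 by over 0.41 lies outside the intervals of its brighter probe in both comparisons. The intervals of the other probe take in larger rises, at -0.23 to 0.61 in E2f1 knockout and -0.10 to 0.73 in E2f2-labelled livers.

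Tfdp2 (chromosome 9) was -1.92, -1.91, -1.0 and -1.34 in wild type on its brighter probe 2 (mm9 96223955 to 96224014). It was -1.04, -0.99, -0.87 and -0.95 in the E2f1 knockout livers and -0.81, -0.96, -0.13 and -1.20 in the E2f2-labelled ones, and a wild type liver lay among the knockout values. The rise was 0.77 ± 0.25 in E2f2-labelled livers (1.71-fold, adjusted p = 0.0471), a call lost in 15 of 23 alternatives (adjusted p from 0.0148 to 0.132). Leaving out wild type replicate 1, 2 or 4 (0.64, 0.65 and 0.84, adjusted p = 0.12, 0.132 and 0.0587), any 1 E2f1 knockout replicate (0.0583 to 0.0611) or E2f2-labelled replicate 1, 2 or 3 (0.077, 0.0693 and 0.123) ended it. In E2f1 knockout the difference of 0.58 ± 0.25 did not pass (adjusted p = 0.128), except without wild type replicate 3 (0.76, adjusted p = 0.0426). Probe 1 (mm9 96219269 to 96219328) differed by 0.25 ± 0.21 (adjusted p = 0.46) and 0.47 ± 0.21 (adjusted p = 0.137). Between the knockout groups neither probe was called, with 0.19 ± 0.25 (adjusted p = 0.861) for probe 2 and 0.22 ± 0.21 (adjusted p = 0.797) for probe 1.

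**Figure D3:**
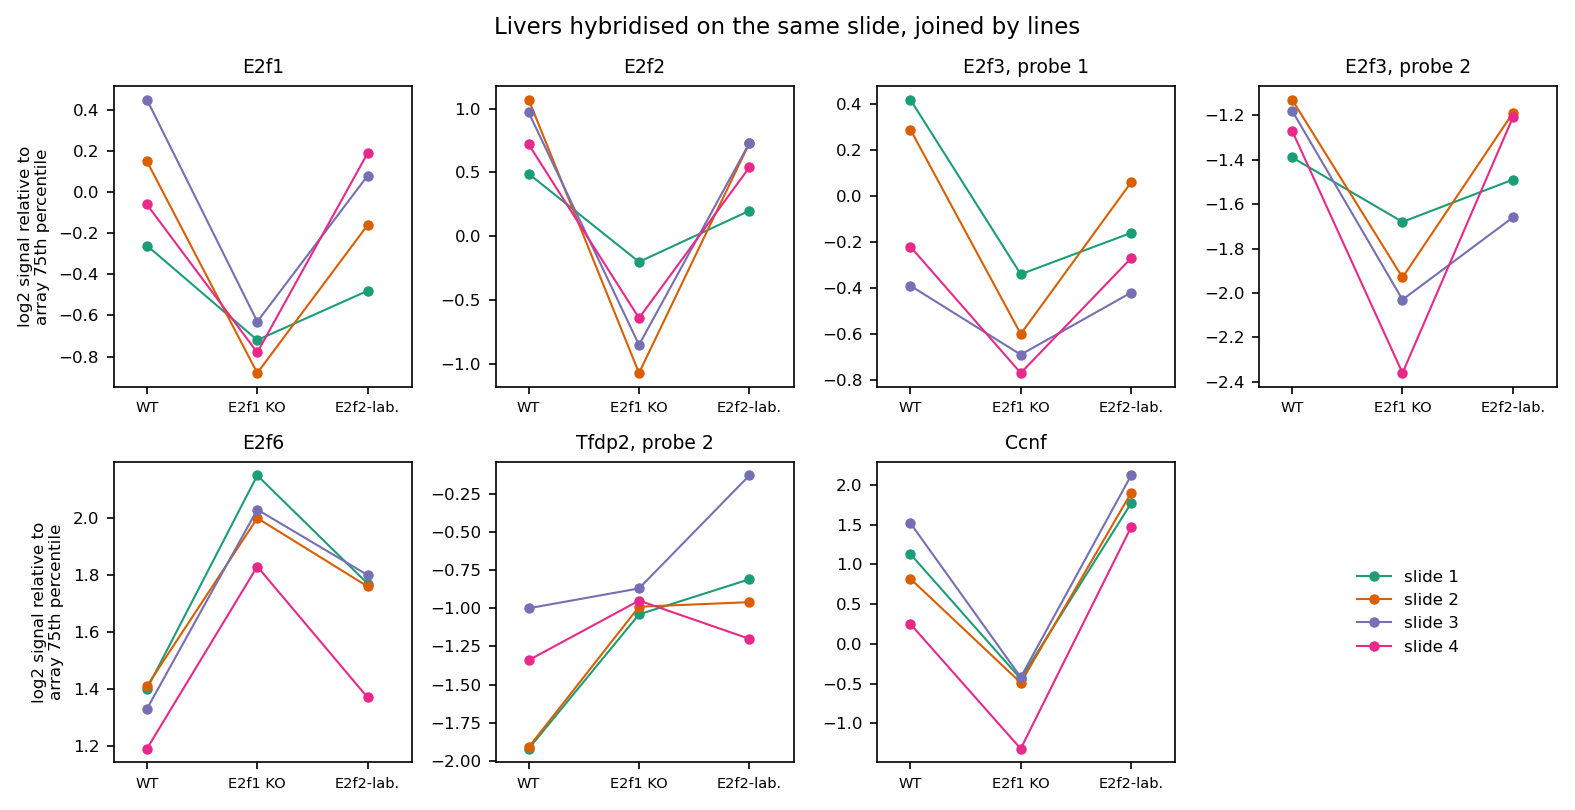
Log2 signal relative to the array's 75th percentile (vertical axis, a different range in each panel) for the called E2F and DP probes and Ccnf, with lines joining the 3 livers on the same slide across the groups (horizontal axis). E2f1, E2f2 and both E2f3 probes dip in E2f1 knockout on all 4 slides, E2f6 peaks there on all 4, and Ccnf is lowest in E2f1 knockout and highest in E2f2-labelled livers on each slide.

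The genes around the E2Fs were read in groups. Over all tested probes 6.78% were called lower and 12.5% higher in E2f1 knockout. In E2f2-labelled livers the shares were 7.18% and 13.7%, and the counts of the lists below stand against them. The pocket proteins and the MuvB complex, which together repress cell cycle genes in quiescence, gave 1 rise and 1 fall among 9 tested genes in each comparison with wild type (median 0.00113 in E2f1 knockout). Calls in this list were thus about as frequent as over all probes. Each of these single calls was lost in some alternatives, both in E2f1 knockout when replicate 2 of wild type or replicate 3 of E2f1 knockout was left out. Rbbp4, a histone chaperone subunit, rose by 0.60 ± 0.16 (adjusted p = 0.0195) and 0.71 ± 0.16 (adjusted p = 0.00913) in E2f1 knockout and E2f2-labelled livers. Mybl2, the B-Myb activator that binds the complex in cycling cells, fell by 0.62 ± 0.17 in E2f1 knockout (adjusted p = 0.0283). Rbl1, which encodes the pocket protein p107, fell by 1.67 ± 0.32 in E2f2-labelled livers (adjusted p = 0.00456), where it was well above background on 1 of 4 arrays. Rb1 itself differed by -0.51 and -0.38 without a call.

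The kinase inhibitors act upstream of the pocket proteins. Of 7 tested, 5 fell in each comparison (3 fell in E2f1 knockout without wild type replicate 2, and 3 in E2f2-labelled livers without wild type replicate 2 or 4 or E2f2-labelled replicate 1 or 4), with medians of -1.89 and -0.93 against 0.13 and 0.18 for all tested probes. Cdkn2a, which encodes p16 and ARF, fell by 3.08 ± 0.48 in E2f1 knockout (adjusted p = 0.00207) and fell by 2.96 ± 0.48 in E2f2-labelled livers (adjusted p = 0.00219). Its neighbour Cdkn2b changed by -4.84 ± 1.04 and -5.57 ± 1.04 (adjusted p = 0.00847 and 0.00429), well above background on 3 and 1 of 4 arrays, from wild type values that ran from -2.11 to 4.30. Cdkn1a, which encodes p21, changed by -2.01 ± 0.52 (adjusted p = 0.019) and -3.02 ± 0.52 (adjusted p = 0.00288). Cdkn2c, which encodes p18, changed by -1.89 ± 0.27 (adjusted p = 0.00139) and -0.93 ± 0.27 (adjusted p = 0.0305).

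Cyclins and kinases of the G1/S step gave 1 fall among 8 tested genes when E2f1 was knocked out and 2 in E2f2-labelled livers. The former count was 2 without wild type replicate 1 or 4, and the latter 1 without wild type replicate 2. Ccna2, the cyclin of S and G2 phase, changed by -2.27 ± 0.35 (adjusted p = 0.0021) and -2.14 ± 0.35 (adjusted p = 0.00244). Ccnd2, a D-type cyclin, fell by 1.90 ± 0.48 in E2f2-labelled livers (adjusted p = 0.0175), while -1.37 ± 0.48 in E2f1 knockout did not pass (adjusted p = 0.0681). Ccnd1, Ccnd3, Ccne1, Cdc25a, Cdk2 and Cdk4 were not called in either comparison.

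The ligase subunits that mark E2F proteins for destruction held the 1 pathway gene outside the family that was called between the knockout groups, Ccnf. Ccnf encodes cyclin F, the substrate receptor of a ubiquitin ligase known to degrade activator E2Fs, and its single probe (chromosome 17, mm9 24360204 to 24360263) was 1.13, 0.82, 1.52 and 0.25 in wild type. In E2f1 knockout it was -0.44, -0.49, -0.42 and -1.32, and in E2f2-labelled livers 1.77, 1.90, 2.12 and 1.47. The E2f1 knockout livers lay below all others, and the E2f2-labelled livers overlapped wild type. It fell by 1.60 ± 0.28 in E2f1 knockout (adjusted p = 0.00362). It was 2.48 ± 0.28 higher in E2f2-labelled than in E2f1 knockout livers (adjusted p = 0.000385), a call that held in 23 of 23 alternatives (1.92 to 2.6) and on each slide (2.21 to 2.79). The rise over wild type in E2f2-labelled livers, 0.89 ± 0.28 (adjusted p = 0.0435), was lost in 14 of 23 (adjusted p from 0.00424 to 0.116). These were wild type replicate 1, 2 or 4 left out (0.95, 0.85 and 0.66), E2f1 knockout replicate 1, 2 or 3 (adjusted p = 0.053, 0.0533 and 0.051), E2f2-labelled replicate 1, 2 or 3 (0.90, 0.86 and 0.78) and 5 other processing settings. Skp2 and Fzr1, the other subunits on the list, differed by -0.50 ± 0.23 (adjusted p = 0.163) and -0.09 ± 0.18 (adjusted p = 0.781) in E2f1 knockout.

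**Figure D4:**
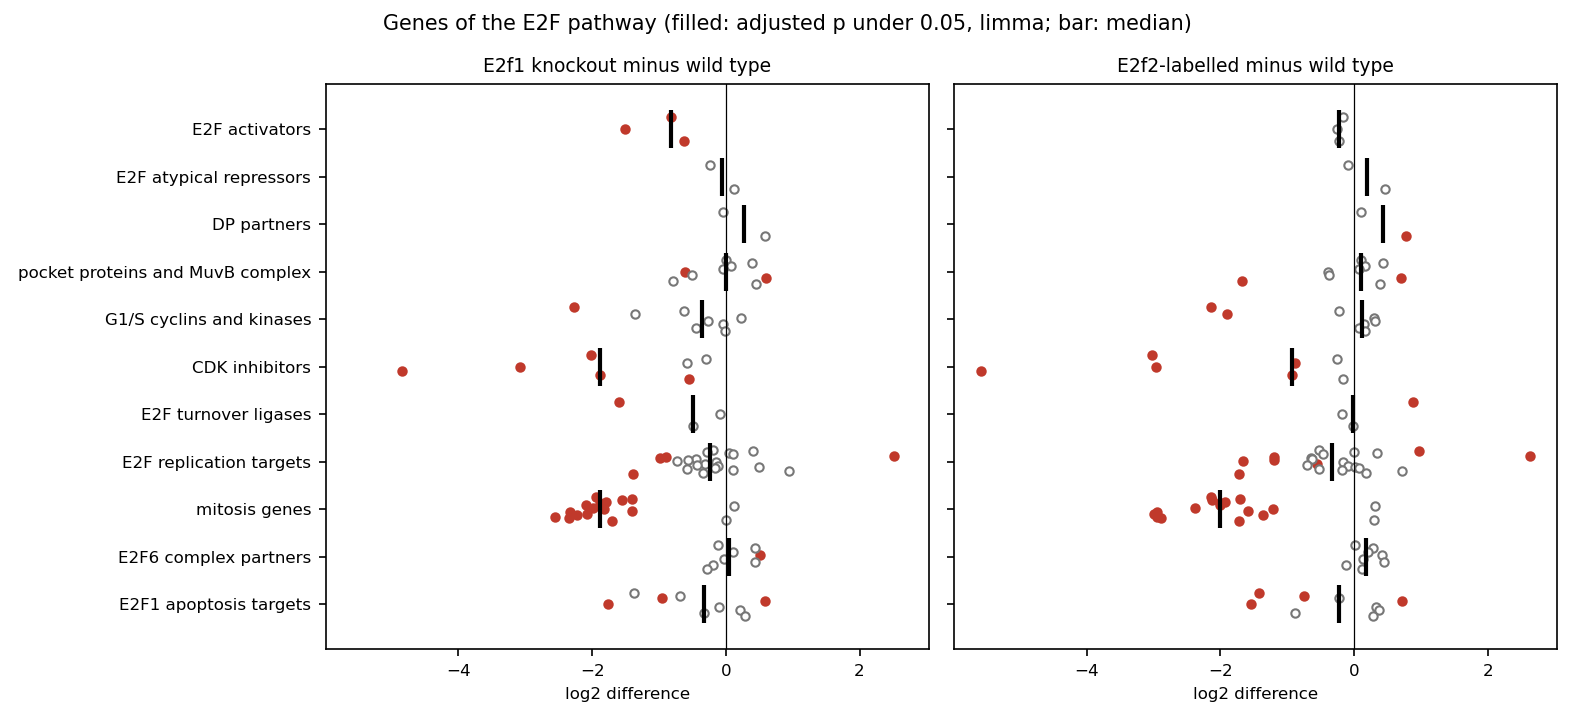
Log2 differences from wild type (horizontal axis) of the tested genes in lists of the E2F pathway (vertical axis), in E2f1 knockout and E2f2-labelled livers; filled points passed an adjusted p of 0.05 and bars are medians. Mitosis genes and kinase inhibitors lie to the left in both panels, and the E2F turnover point for Ccnf is left of 0 in the first panel and right of 0 in the second.

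Targets of E2F were read as replication genes and mitosis genes. Of 22 tested replication genes 3 fell and 1 rose in E2f1 knockout (median -0.24), and 5 fell and 2 rose in E2f2-labelled livers (median -0.33). Over all tested probes 19.3% and 20.8% were called in either direction, and the E2f1 knockout count as a whole was close to its share. The falls were 5 without E2f1 knockout replicate 1 in the first comparison and 3 without wild type replicate 2 or E2f2-labelled replicate 2 in the second, and the rises in the first were 2 without wild type replicate 3 or 4. With the slide as a block the falls in E2f2-labelled livers were 8. Mcm2, a subunit of the replicative helicase, changed by -0.89 ± 0.26 (adjusted p = 0.0332) and -1.20 ± 0.26 (adjusted p = 0.00867). Mcm6, another subunit, fell by 1.65 ± 0.37 in E2f2-labelled livers (adjusted p = 0.00936), and -0.73 ± 0.37 in E2f1 knockout did not pass (adjusted p = 0.192). Uhrf1, which guides the maintenance of DNA methylation, changed by -1.39 ± 0.28 (adjusted p = 0.00618) and -1.72 ± 0.28 (adjusted p = 0.00215).

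Mcm10, an origin-firing factor, went the other way and rose by 2.52 ± 0.54 (adjusted p = 0.00814) and 2.63 ± 0.54 (adjusted p = 0.00645). Its wild type values ran from 1.19 to 4.34. The highest, in replicate 3, was just below the lowest E2f1 knockout (4.58) and E2f2-labelled (4.45) livers. Tyms, Tk1, Rrm1 and Rrm2, which make or reduce nucleotides, were not called in either comparison.

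Mitosis genes fell in 15 of 17 tested cases in each comparison, with medians of -1.89 and -2.00. With the filter at all 12 arrays 8 were tested and 6 fell in each. Mki67, the proliferation antigen, changed by -2.34 ± 0.54 (adjusted p = 0.0114) and -2.94 ± 0.54 (adjusted p = 0.00383). Prc1, a midzone spindle protein, changed by -2.56 ± 0.48 and -2.95 ± 0.48 (adjusted p = 0.00467 and 0.00219). Top2a, which untangles chromosomes, was well above background in 3 of 4 wild type livers and in none of the other 8. It was at least 2.31-fold and at least 2.56-fold lower (adjusted p = 0.000898 and 0.000173). Nusap1, a spindle protein, was not well above background in any E2f2-labelled liver, at least 3.62-fold lower (adjusted p = 0.0032). Top2a and Nusap1 entered the test through the wild type arrays alone, a filter that favours a lower value in the other groups. Their adjusted p-values also rest on values at background, so the bounds describe them better.

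The mean log2 level of the 17 mitosis genes was -1.05 to 0.02 in wild type, -2.89 to -1.47 in the E2f1 knockout livers and -2.93 to -2.25 in the E2f2-labelled ones. Between the knockout groups their median difference was -0.18. In whole-liver RNA fewer cycling cells and less RNA per cell cannot be told apart.

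Partners of E2F6 in its repressor complexes gave 1 rise among 8 tested genes in E2f1 knockout, Mga (0.51 ± 0.16, adjusted p = 0.0413), which encodes a scaffold of the complex. In E2f2-labelled livers Mga differed by 0.41 ± 0.16 (adjusted p = 0.0873). The count in E2f1 knockout was 0 in 14 of 23 alternatives, among them without replicate 2, 3 or 4 of wild type, replicate 1, 3 or 4 of E2f1 knockout or E2f2-labelled replicate 1 or 4, and 2 with the slide as a block. Of the 7 germline genes on the list that E2F6 represses, 1 was tested, Smc1b, and it differed by -0.27 and -0.28 without a call. Among 9 tested apoptosis genes linked to E2F1, 2 fell and 1 rose in E2f1 knockout and 3 fell and 1 rose in E2f2-labelled livers. In E2f2-labelled livers 1 fell when wild type replicate 1, 2 or 4, any 1 E2f1 knockout replicate or E2f2-labelled replicate 3 or 4 was left out. In E2f1 knockout 4 fell without wild type replicate 3, and none rose without replicate 1 or 2 of wild type or replicate 1 or 3 of E2f1 knockout. Pmaip1, which encodes the BH3-only protein Noxa, changed by -1.76 ± 0.33 (adjusted p = 0.00476) and -1.54 ± 0.33 (adjusted p = 0.00803).

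Some markers of liver cell types were called as well. Over all tested probes 6.78% were called lower and 12.5% higher in E2f1 knockout, and 7.18% and 13.7% in E2f2-labelled livers. In E2f1 knockout 4 of 8 neutrophil markers fell (median -2.74), 3 of 7 stellate markers fell and 3 of 10 hepatocyte markers rose, and the median of 8 T and NK cell markers was -0.55. In E2f2-labelled livers 2 of 8 neutrophil, 4 of 8 T and NK cell and 2 of 7 stellate markers fell. The summed level of the 8 neutrophil markers was 65.0 to 195 times the 75th percentile signal in wild type, 10.2 to 77.0 in the E2f1 knockout livers and 17.4 to 119 in the E2f2-labelled ones. The 7 stellate markers summed to 8.69 to 12.1, 5.50 to 8.50 and 4.19 to 5.81, and the 8 T and NK cell markers to 35.8 to 73.3, 27.5 to 47.7 and 26.3 to 45.4, in the same order. Markers well above background on no array included Klrb1c (NK cells), Pax5 (B cells), Epcam (bile duct) and Pnlip (pancreas). The mean log2 level of 3 adipocyte markers reached 3.68 in 1 E2f1 knockout liver, replicate 1, against 0.04 to 1.48 in wild type, and in E2f2-labelled livers it was -2.94 to -1.02, below every wild type liver. Endothelial markers (8 tested) had a mean log2 level of 2.23 to 2.27 in wild type, 1.42 to 1.96 among E2f1 knockout and 1.67 to 1.94 among E2f2-labelled livers, also without overlap with wild type. Their summed level did overlap, at 67.1 to 85.0 in wild type, 58.1 to 81.6 among E2f1 knockout and 72.8 to 83.7 among E2f2-labelled livers. The sinusoidal marker Lyve1, 1 of these 8 and chosen after its values were seen, differed by -2.91 ± 0.27 and -2.80 ± 0.27 (adjusted p = 7.78e-05 and 7.87e-05). The mean level of the list includes Lyve1 and was not computed without it. The separation of the mean levels can therefore not be read as shared by the other endothelial markers. Without E2f1 knockout replicate 1 the differences of E2f1, E2f2 and E2f6 in E2f1 knockout were -0.84 (adjusted p = 0.0215), -1.67 (0.00094) and 0.62 (0.0205). The part of these cell types in the E2F levels was not tested.

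Genes whose 12-array profile was nearest to that of a called member were found by the root mean square difference of mean-centred log2 values, over 20468 genes. For E2f1 they were 5830420C07Rik, Zfp710 and Ercc8 (0.204, 0.205 and 0.211). For E2f2 they were Tnks (0.299), Hmga2 (0.306) and a transcript region on chromosome 7 (0.316). For E2f3 they were Ap1s1, Galnt10 and Nostrin (0.128, 0.129 and 0.135). For E2f6 they were Lancl2 (0.0639), a transcript region on chromosome 12 (0.0901) and Mrpl33 (0.0909). That region, mm9 16833551 to 16901804, begins 28 bases past the end of the E2f6 probe. Its own probe has no mapped position, so the distance between the probes is not known. For Tfdp2 they were Chuk (0.163), a probe with no gene name (0.164) and a transcript region on chromosome 3 (0.171). Tnks, which encodes tankyrase, averaged -0.09 ± 0.25 in wild type, -1.45 ± 0.21 among E2f1 knockout and -0.20 ± 0.10 among E2f2-labelled livers, and Hmga2, an oncofetal chromatin protein, -2.34 ± 0.43, -3.79 ± 0.20 and -2.89 ± 0.28. Hmga2 was not well above background in E2f1 knockout replicates 1 and 2 (-3.81 and -4.04). The chromosome 7 region was not in any E2f1 knockout liver, so the depth of these falls is uncertain.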

How the data were processed

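The 12 scanner files hold, per the file headers, linear intensity after background subtraction. The submitters' processing notes name the software as Agilent Feature Extraction, version 10.7.3.1. The deposited series matrix holds log2 values and served as an alternative. Here control and outlier spots were left out, spots of a probe were averaged, log2 was taken and each array's 75th percentile of non-control spots subtracted. A probe entered the test if 3 or more of the 4 arrays in some group were well above background. Testing used limma 3.58.1 (R 4.3.3; data.table, version 1.17.8) in 1 fit of all 12 arrays, with 9 residual and 3.23 prior degrees of freedom and Benjamini-Hochberg adjustment at 0.05. Genes were counted by their brightest probe among those tested. Replicates are separate mice per the labels. The script was tested on simulated data. Scanner error of the 12 probes of the 8 brighter genes was 10.0% to 21.8% per spot, and array number limits the precision.

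Named genes were every member probe, up to 4 genes per pathway list called in a comparison with wild type with the largest differences, every gene of lists of 5 or fewer, and the 3 genes nearest in profile to each called member. Some genes that these rules name are not reported here. Members and lists were chosen with earlier results of these data known. Names came from RefSeq accessions, the files' symbols or synonyms. Alternatives were quantile normalization, median centring, normexp (offset 50), matrix values, other filters, outlier spots kept, gene rows, a variance trend, the slide block, 2-group fits and leaving out each array.

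Marker lists, with genes tested, higher and lower in E2f1 knockout and then E2f2-labelled livers, not given in the results were: macrophages (10 tested, 1 and 1, 1 and 2), B and plasma cells (7 tested, 1 and 0, 0 and 0), erythroid cells (7 tested, 1 and 2, 1 and 2), cholangiocytes (4 tested, 0 and 1, 0 and 1), adipocytes (3 tested, 0 and 0, 0 and 2) and exocrine pancreas (4 tested, 1 and 1, 1 and 1).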

Additional observations from a re-analysis of the deposited data

Results flagged for a closer look

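In 42 groups of 4 livers for the member probes and 72 for named pathway genes, a liver was picked out when its distance from the nearest of the other 3 was large for the range of the group (Dixon's test at 95%), which chance gives for about 1 in 20 groups. Among the members E2f6 was 1.37 in E2f2-labelled replicate 4 against 1.76 to 1.80 in the others. E2f7 probe 2 was -2.24 in wild type replicate 2 against -2.98 to -2.86. E2f8 was -1.19 in wild type replicate 1 against -0.28 to -0.12. Tfdp1 probe 2 was -0.55 in E2f2-labelled replicate 2 against -1.06 to -1.0.

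Among the pathway genes Ccnf was -1.32 in E2f1 knockout replicate 4 against -0.49 to -0.42, Rbl1 was -2.54 in E2f2-labelled replicate 1 against -3.80 to -3.62, and Uhrf1 was -1.15 in E2f1 knockout replicate 1 against -2.10 to -1.95.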

How the results depend on the processing

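Over 23 alternatives the falls of E2f1 (-0.93 to -0.58) and E2f2 (-1.67 to -1.15) in E2f1 knockout and the E2f2 difference between the knockout groups passed in all 23. The 4 members called in E2f1 knockout became 2 (E2f1 and E2f2) with median centring and 3 to 5 when a liver was left out. The 1 member called in E2f2-labelled livers (Tfdp2) became 0 with quantile normalization, median centring, matrix values, no filter or a fit of only the 2 groups, 2 with the replicate block (Tfdp2 and E2f6), and 0 to 1 when a liver was left out; without wild type replicate 4 the 1 was E2f4 (adjusted p = 0.0489). E2f4 was not well above background on any wild type array left in that fit. The causes were not tested. An added paired fit of the E2f2-labelled and wild type livers left E2f2 uncalled (-0.262, adjusted p = 0.179). Replicate numbers name slides, and arrays were also correlated after the group mean of each probe was subtracted. For these deviations 10 of 12 same-numbered pairs correlated above 0.1 (0.0425 to 0.403). Among arrays of the other groups, 11 of 12 arrays correlated best with their own number.

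Signs turned for uncalled differences only, 16 of 882 single-probe values over the 23 alternatives. For E2f4 in E2f1 knockout these were -0.0366 with quantile normalization and -0.0333 with matrix values, with a range of -0.307 to 0.608 when a liver was left out. For E2f7 probe 1 they were 0.0369 with normexp in E2f2-labelled livers, and leaving out a liver gave -0.463 to 0.074 in E2f1 knockout, -0.316 to 0.22 in E2f2-labelled livers and -0.0401 to 0.365 between the knockout groups. Leaving out a liver also gave -0.218 to 0.319 for E2f8 and -0.111 to 0.00232 for Tfdp1 probe 1 in E2f1 knockout, and -0.0242 to 0.33 for Tfdp2 probe 2 between the knockout groups. The scalings moved the median of all tested probes in E2f1 knockout between 0.0491 (quantile) and 0.131. Signal near background limits E2f4 and E2f5.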
